A study of Homo sapiens with 24 samples.

Results

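The response to ibrutinib plus asparaginase was compared between Sem and Nalm6, as the change from untreated to treated cells in Sem minus the same change in Nalm6. The comparison used 12 of the 24 RNA sequencing libraries of the study, all those of the 4 groups concerned, with 3 libraries per group. Nalm6 and Sem are established human lines grown from acute lymphoblastic leukaemias of B cell precursors; a rearrangement of the KMT2A gene is carried by Sem. The untreated Nalm6 and untreated Sem groups received no drug, and the time at which they were harvested was not stated. The treated Nalm6 and treated Sem groups received both drugs for 24 h, ibrutinib at 10 µM and asparaginase at 1 IU/ml per the sample labels (0.5 IU/ml per the protocol text). Every group was grown in the same serum-containing medium, and each line stands for 1 leukaemia. Separate cultures were not described, so p-values measure only the spread between libraries, which may be technical.

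Ibrutinib blocks BTK, a kinase that passes on signals from the B cell receptor and its precursor form, and at high doses it also inhibits other kinases. Asparaginase removes asparagine from the medium; cells that run short of amino acids hold back protein synthesis and switch on the transcription factor ATF4, whose targets include amino acid enzymes, transporters and the stress genes DDIT3 and TRIB3. Growth factor and receptor signals that run through the kinase ERK switch on early genes such as EGR1 and IER2 and also the inhibitors that hold ERK back, among them DUSP6 and the SPRY and SPRED proteins, so that the RNA of these genes is commonly read as a measure of ERK output.

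Of 13 markers of precursor B cells, all 13 were at 1 FPKM or more (fragments per kilobase of gene, scaled by library size) in every library of Nalm6, and 9 in Sem, where DNTT, MME, RAG1 and RAG2 were lower. Each library held between 15 and 18.1 M reads assigned to genes, and a single read in a 1 kb gene was worth 0.0534 to 0.0678 FPKM in the 12 libraries. Summed over 15 markers, myeloid RNA fell from 100.2 to 124 FPKM in untreated to 45.9 to 48.7 FPKM in treated Sem, against 14.2 to 16.7 and 9.18 to 10.4 FPKM in Nalm6. Of that list CEBPA, CSF1R and LYZ were at 1 FPKM or more in untreated Sem, and 7 of 15, with ELANE and PRTN3 among them, were at 0. Summed over 11 markers, plasma and mature B cell RNA went from 97.2 to 102 down to 49.1 to 63.3 FPKM in Nalm6. In Sem it went from 42.3 to 43.7 up to 72.7 to 76.6 FPKM. IGHD and MZB1 were at 1 FPKM or more in every library of both lines, IGKC in those of Sem and SDC1 in those of Nalm6. Over 16 T and NK cell markers the sums were 113.6 to 128 and 100.5 to 103 FPKM in Sem. In Nalm6 they were 13.1 to 14.8 and 13.8 to 18.0 FPKM. Of that list GATA3, NKG7 and TRAC were at 1 FPKM or more in every library of Sem, and CD3D, CD3E and CD3G were at 0 there. GATA3, TRAC and BCL11B were at 1 FPKM or more in every library of Nalm6. Erythroid and stromal markers, 12 in all, summed to 7.21 FPKM at most. The part of these markers in the results below was not tested. Within their groups, untreated Nalm6 library 2, treated Nalm6 library 1 and untreated Sem library 2 stood apart from the rest. Without these 3 libraries 5783 genes differed between the lines, 480 of them opposite and 38 strongly so, beside the 6160, 477 and 34 given below with all libraries.

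More genes passed in Nalm6 than in Sem, and the median size of change was larger there. The combination changed 9120 of 15116 tested genes in Nalm6 (60.3%; 4724 higher, 31.3%, and 4396 lower, 29.1%). In Sem it changed 7067 (46.8%; 3667 higher, 24.3%, and 3400 lower, 22.5%), and the difference between the lines passed for 6160 genes (40.8%; limma, two-sided, adjusted p under 0.05; 7229 at an unadjusted p under 0.05). Of these, 3354 differences were higher in Sem (22.2%) and 2806 were lower (18.6%). Over the 10908 tested genes expressed in both lines, the median absolute log2 change was 0.23 in Sem and 0.36 in Nalm6, with SDs across genes of 0.38 and 0.59. The changes of the 2 lines had a Pearson r of 0.63 across these genes, which are not independent replicates. A fold here is on the log2(FPKM + 1) scale, which understates the change of low genes, and a gene counted as expressed in a line when its untreated or its treated group had at least 1 FPKM in all 3 libraries.

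**Figure D1:**
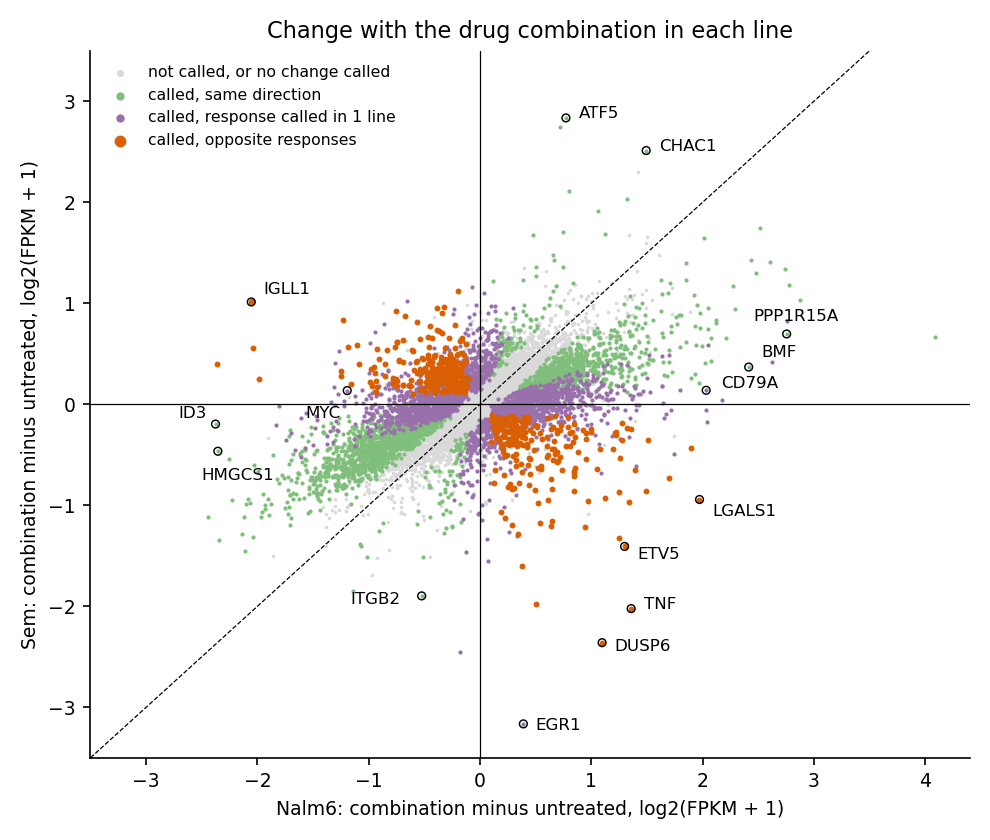
Each point is 1 of the 10908 genes expressed in both lines, with the log2 change in Nalm6 on the x axis and in Sem on the y axis; orange points are the 477 opposite responses, green points changed the same way in both lines, purple points changed in 1 line, and grey points did not differ between the lines or had no change called. Most green points lie nearer the x axis than the dashed line of equal change, EGR1, DUSP6, TNF and ETV5 lie at the bottom, and IGLL1 lies alone at the upper left.

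Of the 6160 genes, 4847 were expressed in both lines and 1313 were not. Among the 4847, 2130 moved the same way in both lines, 2177 had a change called in 1 line alone, 477 moved in opposite directions and 63 had neither change called. Nalm6 had the larger change in 1958 of the 2130 same-direction genes and Sem in 172. The one-line changes lay in Nalm6 for 1701 genes (860 lower, 841 higher) and in Sem for 476 (275 higher, 201 lower). A change that missed the threshold in the other line is not shown to be absent there.

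**Figure D2:**
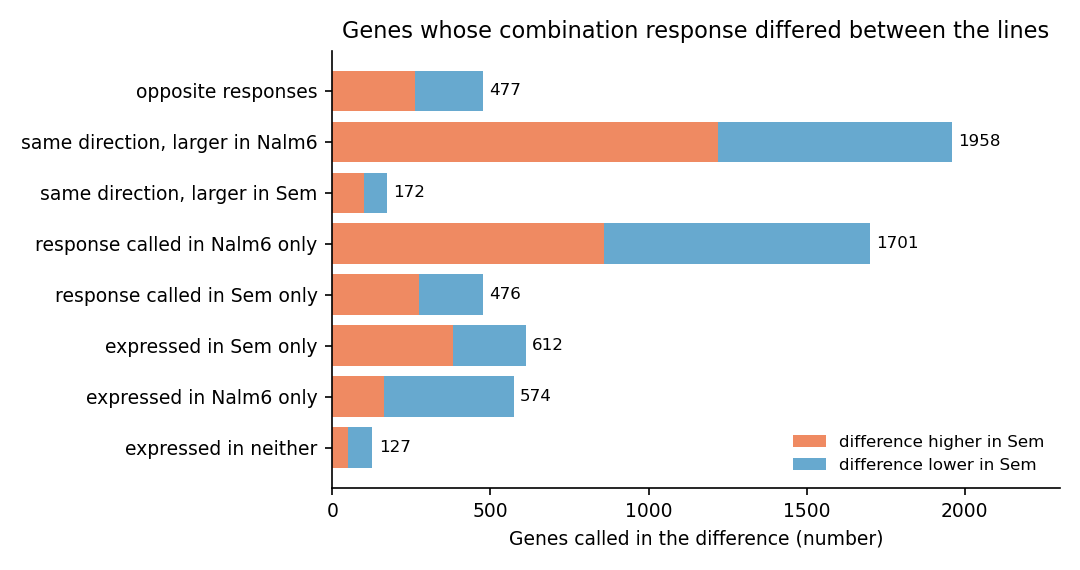
Bars give the number of genes called in the difference between the lines by kind of response, split into differences that were higher (orange) or lower (blue) in Sem; the 63 genes with neither change called are not drawn. The 2 longest bars are genes with the larger change in Nalm6 (1958) and with a change called in Nalm6 only (1701), and the 477 opposite responses form a small bar at the top.

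Genes expressed in 1 line were kept apart from opposite responses, since the other line held little RNA in which a change could be measured. They numbered 612 in Sem only, 574 in Nalm6 only and 127 in neither line by the rule above. In the 612, the median level was 2.72 FPKM in Sem and 0.0111 FPKM in Nalm6, and 403 were under 0.1 FPKM in Nalm6. In the 574, the median level was 1.91 FPKM in Nalm6 and 0.218 FPKM in Sem. On recovered whole reads with limma-voom, which compares folds, 164 of the 612 and 258 of the 574 kept their direction and call.

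KCNK3, a potassium channel, showed the plainest loss in Sem: 6.94, 6.16 and 6.59 FPKM untreated and 0.0565, 0.0386 and 0.0729 FPKM treated (difference -2.92 ± 0.078, SE, limma adjusted p = 9.5e-15). In Nalm6 no library exceeded 0.0773 FPKM, so a fall could not have been seen there. Its change in Nalm6 (0.08) did not pass. As a rise from this low level it was called on whole reads (2.51, limma-voom adjusted p = 0.0038), with a pseudocount of 0.1 (0.58) and under TPM rescaling (0.28). AHRR, a repressor of the aryl hydrocarbon receptor (-2.63), EMP1, a membrane protein (-2.37), and FUT7, a fucosyltransferase that builds selectin ligands (-2.10), also fell in Sem. AHRR rose in Nalm6 (0.48), as did FUT7 (0.44) and EMP1 (0.17), all without reaching 1 FPKM in all 3 libraries. Under quantile normalization the rises of FUT7 (0.20) and EMP1 (-0.0027) in Nalm6 were not called. TSPAN8, a tetraspanin, rose in Nalm6 from 0.189, 0.153 and 0.236 to 12.7, 11.2 and 9.99 FPKM and was at 0 in all 6 libraries of Sem (-3.36 ± 0.105, limma adjusted p = 3.4e-14). TSPAN8 overlaps LGR5, which also moved, and the strand of the libraries is not stated. GZMA, a granule protease (-2.46), and LTB, a lymphotoxin subunit (-2.42), rose in Nalm6 from a low level, and MT1G, a metallothionein, fell there (2.41) at under 0.5 FPKM in Sem. The change of LTB in Sem (-0.25) did not pass, but its fall was called by limma-voom (-2.64), with a pseudocount of 0.1 (-1.33) and under TPM rescaling (-0.67). That of GZMA in Sem (-0.27) was called with a pseudocount of 0.1 (-1.21). RAG1 belonged to the same group. It rose in Nalm6 from 79.2, 74.1 and 73.7 to 160, 150 and 156 FPKM and lay between 0.0468 and 0.133 FPKM in Sem. The RAG1 difference of -0.98 shrank to -0.44 on whole reads and no longer passed (limma-voom adjusted p = 0.46). FLT3, a receptor kinase gene that is high in KMT2A-rearranged leukaemia, rose in Sem from 388, 404 and 408 to 563, 594 and 572 FPKM and stayed under 0.1 FPKM in Nalm6. Its difference of 0.46 turned to -1.12 on whole reads, where both changes are folds, and was not called (limma-voom adjusted p = 0.213). With a pseudocount of 0.1 the difference was 0.03 and not called. The change of FLT3 in Nalm6 (0.07) did not pass, but a rise was called by limma-voom (1.67), with a pseudocount of 0.1 (0.49) and under TPM rescaling (0.26).

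Opposite responses were set apart as genes expressed in both lines whose changes both passed and had opposite signs. There were 477 (3.16% of genes tested), 262 higher in Sem and lower in Nalm6 (1.73%) and 215 lower in Sem and higher in Nalm6 (1.42%). Most were small: the smaller of the 2 changes had a median size of 0.24 on the log2 scale in the former and 0.27 in the latter. A change of at least 1.5-fold in both lines was reached by 34 (0.225%), 9 higher in Sem and 25 lower. In 18 of these 34 the order of the lines turned with treatment, and the median absolute gap between the lines went from 0.99 untreated to 1.48 treated. All 34 kept their direction and call on whole reads.

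The promoters of 5 genes are shown because they belong to genes with a large or clean opposite or one-line response, each as the 250 bases before the RefSeq start (GRCh38.p14), 5′ to 3′ on the gene's strand, with a motif match in capitals. In EGR1 both capital stretches are CArG boxes, the site of serum response factor, which acts with ETS factors downstream of ERK. In BCL2 the capitals are also a CArG box. In PHACTR1 they match TGATGNAAN on the reverse strand, the letters of ATF4 with CEBP, and in ITGA6 they are CACGTG, an E box of the kind MYC binds. DUSP6 held none of the 6 motifs searched on both strands.
EGR1, chr5:138465229-138465478, plus strand: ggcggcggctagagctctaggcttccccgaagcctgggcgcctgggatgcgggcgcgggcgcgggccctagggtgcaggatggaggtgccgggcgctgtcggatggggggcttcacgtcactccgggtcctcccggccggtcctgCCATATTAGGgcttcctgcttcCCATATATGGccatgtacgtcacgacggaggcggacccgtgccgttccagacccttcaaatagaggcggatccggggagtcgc
DUSP6, chr12:89352502-89352751, minus strand: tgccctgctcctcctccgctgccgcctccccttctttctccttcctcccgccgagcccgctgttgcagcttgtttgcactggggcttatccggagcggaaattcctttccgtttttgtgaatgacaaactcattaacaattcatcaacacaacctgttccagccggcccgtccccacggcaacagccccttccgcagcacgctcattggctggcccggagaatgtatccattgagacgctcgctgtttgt
ITGA6, chr2:172427086-172427335, plus strand: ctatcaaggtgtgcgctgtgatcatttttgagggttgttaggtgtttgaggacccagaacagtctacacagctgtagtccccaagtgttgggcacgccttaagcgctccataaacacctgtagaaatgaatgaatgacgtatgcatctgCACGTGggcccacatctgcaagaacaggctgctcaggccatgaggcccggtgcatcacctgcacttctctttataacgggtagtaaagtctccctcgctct
PHACTR1, chr6:12716517-12716766, plus strand: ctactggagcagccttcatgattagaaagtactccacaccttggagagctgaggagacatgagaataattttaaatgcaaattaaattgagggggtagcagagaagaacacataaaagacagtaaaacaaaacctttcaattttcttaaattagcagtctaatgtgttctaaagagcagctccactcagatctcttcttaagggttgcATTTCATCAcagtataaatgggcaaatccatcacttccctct
BCL2, chr18:63319770-63320019, minus strand: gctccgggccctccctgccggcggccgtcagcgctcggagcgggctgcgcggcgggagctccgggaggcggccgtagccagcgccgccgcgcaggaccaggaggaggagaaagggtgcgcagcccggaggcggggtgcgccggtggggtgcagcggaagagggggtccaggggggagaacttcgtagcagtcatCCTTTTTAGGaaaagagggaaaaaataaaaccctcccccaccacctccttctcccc

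Motif shares were taken over the 250 bases before to 50 after the start, in the 376 of 477 opposite-response genes and the 9239 of 15116 tested genes with an entry. The CArG box was present in 2.66% and 1.04%, CACGTG in 8.24% and 10.6%, TGATGNAAN in 1.60% and 1.65%, GTAAACA, the letters of FOXO, in 3.19% and 2.28%, the ETS letters CCGGAAGT in 3.19% and 9.65%, and TGACGTCA, the letters of CREB and ATF, in 2.66% and 3.33%. The CArG, ETS and CREB motifs were added after seeing the data. A match describes letters in this window and shows no binding.

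Of the genes that fell in Sem and rose in Nalm6, DUSP6 (ENSG00000139318, GRCh38 chromosome 12, 89347232 to 89353271, minus strand), the phosphatase that switches ERK off, went from 5.27, 6.01 and 6.44 FPKM in untreated Sem to 0.468, 0.272 and 0.294 FPKM. In Nalm6 it went from 16.8, 18.7 and 17.6 to 41.0, 37.9 and 38.0 FPKM. Neither line's untreated and treated libraries overlapped, and the treated mean was 0.0583 of the untreated one in Sem and 2.20 times it in Nalm6 (difference -3.46 ± 0.098, limma adjusted p = 1.1e-14). ETV5 (chromosome 3, 186046308 to 186110318, minus strand), an ETS transcription factor induced by ERK, fell in Sem from 3.44, 3.36 and 3.40 to 0.687, 0.601 and 0.692 FPKM. In Nalm6 it rose from 5.10, 4.42 and 4.75 to 12, 13.7 and 13.8 FPKM (-2.71 ± 0.078, limma adjusted p = 1.1e-14). Nalm6 was above Sem in every library of ETV5 before treatment too, and the gap widened. IER2, an early response gene, fell in Sem from 48.0, 56.3 and 57.7 to 22.9, 21.7 and 24.0 FPKM and rose in Nalm6 from 39.6, 34.6 and 41.2 to 53.8, 64.4 and 62.9 FPKM (-1.84 ± 0.138, limma adjusted p = 4.1e-09), so that the line with more IER2 changed with treatment. An antisense gene, AC011446.2, overlaps IER2 and differed by -1.79, and without strand their reads cannot be told apart.

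TNF, an inflammatory cytokine, fell in Sem from 3.22, 3.6 and 5.71 to 0.42, 0.108 and 0.232 FPKM and rose in Nalm6 from 0.213, 0.423 and 0.474 to 2.30, 2.38 and 2.84 FPKM (-3.38 ± 0.243, limma adjusted p = 2.2e-09). For TNF, too, the line with more RNA changed with treatment. ICAM1, an adhesion molecule of inflamed cells (-1.48), ALOX5AP, which helps make leukotrienes (-2.57), and RGS16, a brake on G protein signals (-1.93), moved the same way as TNF. LGALS1, the lectin galectin-1, which is typical of KMT2A-rearranged leukaemia, stood at 147, 131 and 142 FPKM in untreated and 66.6, 76.5 and 74.6 FPKM in treated Sem. In Nalm6 it rose from 2.05, 1.70 and 2.59 to 11.3, 10.4 and 11.7 FPKM (-2.91 ± 0.138, limma adjusted p = 8.9e-12). Sem kept the higher LGALS1 level in all libraries. ITGA6, the integrin alpha 6 chain, went from 1.69, 2.05 and 2.32 to 0.744, 0.892 and 0.793 FPKM in Sem and from 5.20, 4.81 and 4.76 to 18.8, 18.1 and 17.9 FPKM in Nalm6 (-2.44 ± 0.092, limma adjusted p = 4.6e-13), so an existing gap widened. LYL1, a haematopoietic transcription factor (-2.12), TMC8 (-2.16), MYO7B, an unconventional myosin (-2.05), and DMPK, a kinase (-2.31), completed the 10 genes of this kind chosen by the naming rule, and CD52 (-1.56) and HLA-DRB1 (-1.49) reached 1.5-fold in both lines too. Without the 3 libraries that stood apart, HLA-DRB1 was no longer among the strong opposite responses. Treated Nalm6 library 1 had the lowest LYL1 of its group, 47.7 FPKM against 73.7 and 76.3.

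Genes that rose in Sem and fell in Nalm6 were led by IGLL1 (ENSG00000128322, chromosome 22, 23573125 to 23580308, minus strand), a surrogate light chain of the pre-B cell receptor. It stood at 170, 158 and 165 FPKM in untreated and 322, 332 and 345 FPKM in treated Sem. In Nalm6 it went from 998, 984 and 1110 down to 220, 264 and 260 FPKM. Untreated Nalm6 had far more IGLL1 than Sem in every library, and treated Nalm6 had less in every library (difference 3.07 ± 0.089, limma adjusted p = 1.1e-14; 2.02 times the untreated mean in Sem and 0.240 of it in Nalm6). An antisense gene, AP000345.1, overlaps IGLL1 and showed the same difference of 3.07, and without strand their reads cannot be told apart. DUSP6, ITGA6, ICAM1, DMPK, TMC8, CD52, DERL3, PELI3 and PHACTR1, and ATF5, BMF, CD72, CEBPB and PLK1 among the genes described further on, also overlap another gene at 1 FPKM or more. DERL3, which helps export misfolded proteins from the endoplasmic reticulum, rose from 9.16, 9.69 and 8.76 to 18.3, 18.8 and 17.9 FPKM in Sem and fell from 9.99, 9.78 and 9.52 to 4.51, 5.95 and 5.77 FPKM in Nalm6 (1.68 ± 0.114, limma adjusted p = 1.1e-09). HDAC9, a class II histone deacetylase, rose from 1.92, 2.13 and 1.94 to 3.33, 3.65 and 3.56 FPKM in Sem and fell from 1.91, 2.10 and 1.81 to 0.389, 0.327 and 0.387 FPKM in Nalm6 (1.69 ± 0.082, limma adjusted p = 1.1e-11). DERL3 and HDAC9 began at nearly equal levels in the 2 lines and ended apart, without overlap.

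PELI3, an E3 ligase of innate immune signalling (1.55), QPRT, an enzyme of NAD synthesis (1.37), PHACTR1, a regulator of actin and protein phosphatase (1.36), BIK, a death-promoting relative of BCL2 (1.33 ± 0.249, limma adjusted p = 0.00027), and AC119396.1 (2.06) were the others of this kind. A pair of lymphoid survival genes moved with them at a smaller size. BCL2, the founding survival gene of its family, rose from 29, 29.8 and 30 to 41.7, 44.4 and 43.8 FPKM in Sem and fell from 5.71, 5.63 and 5.38 to 3.20, 3.41 and 3.32 FPKM in Nalm6 (1.14 ± 0.061, limma adjusted p = 4.5e-11). IL7R, the receptor chain for interleukin 7, rose from 35.9, 40.4 and 37.9 to 55.5, 55.9 and 56.6 FPKM in Sem and fell from 75.9, 76.3 and 72.6 to 42.5, 36 and 39 FPKM in Nalm6 (1.47 ± 0.074, limma adjusted p = 2e-11). Treated Sem was above treated Nalm6 for both genes, whereas for IL7R untreated Nalm6 had been above untreated Sem. BTK, the target of ibrutinib, moved little and in opposite directions, from 39.3, 40.5 and 39.3 to 36.1, 35.2 and 36.2 FPKM in Sem and from 41.4, 42.9 and 41.0 to 50, 49.3 and 49 FPKM in Nalm6 (-0.38 ± 0.050, limma adjusted p = 5.1e-06); its fall in Sem was -0.06 and not called under TPM rescaling and turned to 0.04 under quantile normalization.

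**Figure D3:**
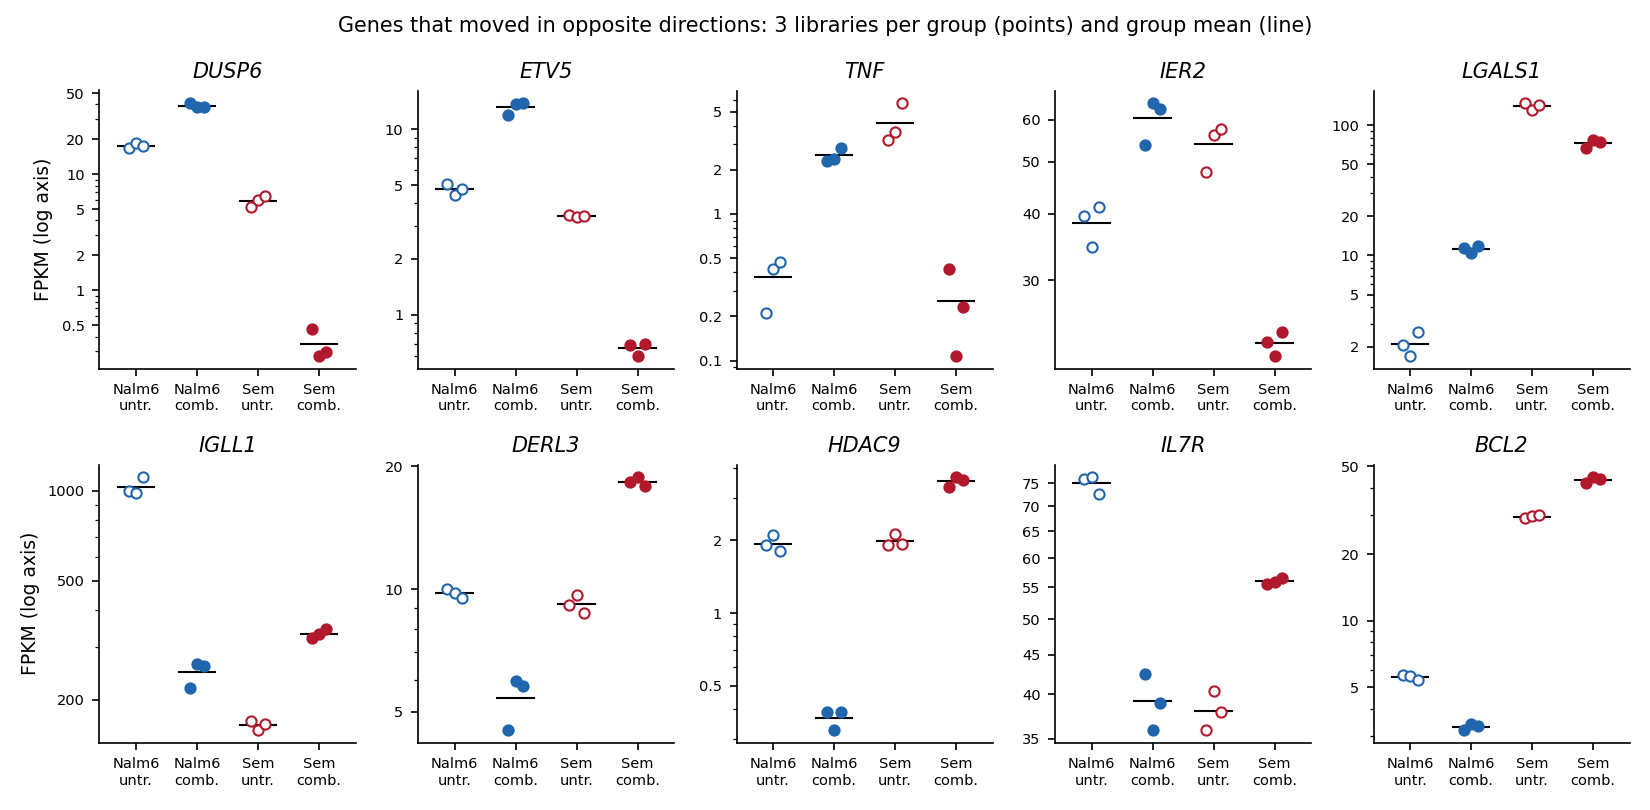
FPKM on a log axis for 10 genes that moved in opposite directions, with 1 point per library (3 per group), open for untreated and filled for treated cells, blue for Nalm6 and red for Sem, and a line at the group mean. DUSP6, ETV5 and TNF drop below 1 FPKM in treated Sem, and IER2, IGLL1, TNF and IL7R change which line is higher.

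With single drugs (SD, n = 3), DUSP6 in Sem was 0.292 ± 0.109 FPKM with ibrutinib and 9.28 ± 0.326 FPKM with asparaginase, and in Nalm6 23.4 ± 1.01 and 21.1 ± 0.563 FPKM. IGLL1 was 322 ± 5.24 FPKM with ibrutinib and 77.2 ± 3.98 FPKM with asparaginase in Sem, and 858 ± 27.7 and 371 ± 18.2 FPKM in Nalm6. Treated with ibrutinib alone, Sem had DUSP6 and IGLL1 levels near those of the combination, and with asparaginase alone it did not.

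Among ERK feedback inhibitors and early genes as a group, 19 of 27 were high enough to test. Of the 19, 14 differences were lower in Sem and 2 higher (84.2% called), with a median of -0.91 beside 0.02 over all genes tested. Here and in the lists below, counts are read beside 40.8% called and 3.16% opposite over all genes tested. That median lay between -1.53 and -0.57 over the alternatives run. In Sem 16 fell and 2 rose (median change -0.75), and in Nalm6 8 rose and 3 fell (0.23). Of the 19, 8 moved in opposite directions, and between 6 and 8 did under TPM rescaling, quantile normalization and voom. EGR1 (chromosome 5, 138465490 to 138469315, plus strand), an early transcription factor, had the most negative difference of the list (-3.55 ± 0.277, limma adjusted p = 6.3e-09). It fell in Sem from 14.6, 8.94 and 9.84 to 0.411, 0.153 and 0.433 FPKM, while in Nalm6 it was 2.95, 2.24 and 3.35 FPKM untreated and 3.56, 4.03 and 4.46 FPKM treated, a change of 0.39 that did not pass (limma adjusted p = 0.095). The rise of EGR1 in Nalm6 was called under TPM rescaling (0.63) and with the replicate number as a block in the fit (0.39). The inhibitors of the SPRY and SPRED families did not all move alike. SPRED2 (-1.72), SPRY2 (-1.48) and SPRED1 (-0.82) fell in Sem and rose in Nalm6, SPRY4 (-1.76) was lost in Sem and under 0.3 FPKM in Nalm6, and SPRY1 rose by 0.31 in Sem and fell by 0.28 in Nalm6 (0.59). For SPRY1 the fall in Nalm6 was not called under TPM rescaling (-0.17) or without untreated Nalm6 library 1 or 3 (-0.25 and -0.23) or treated library 1 (-0.22), nor the rise in Sem under quantile normalization (0.18) or without treated Sem library 2 (0.21). JUND, an AP-1 subunit, differed by -1.50, mostly through a rise of 1.22 in Nalm6, and was opposite. Its small change in Sem (-0.29, limma adjusted p = 0.036) lost its call in several alternatives. Among them were TPM rescaling (-0.20), quantile normalization (-0.04) and the fit with the 12 libraries alone. DUSP1, a phosphatase induced by stress, rose in both lines (0.39 in Sem, 0.91 in Nalm6), and DUSP2 fell in both. SPRED2, SPRY2, SPRED1, SPRY1 and JUND were named after their values were seen, as were the MHC class II genes below beyond the leading 5.

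Genes of MHC class II, which present antigen to helper T cells, rose in Nalm6. Of 11 tested genes (2 were too low), 10 differences were lower in Sem and 0 higher (90.9% called), with a median of -1.21. In Nalm6 10 rose and 0 fell (median change 1.00), and in Sem 5 fell and 1 rose (-0.19). HLA-DRB1, HLA-DRA, HLA-DPA1 and CD74, the invariant chain, moved in opposite directions, with differences of -1.49, -1.25, -1.21 and -1.11. Under quantile normalization the fall of HLA-DRA in Sem went from -0.25 to -0.09 and was not called, which left 3 opposite genes. CIITA, the master activator of the pathway, rose by 1.03 in Nalm6 and was at -0.05 in Sem, which did not pass. HLA-DMB (-2.01) and HLA-DMA (-1.46), which load peptide, rose by 1.62 and 1.40 in Nalm6. HLA-DOA rose in both lines, and HLA-DQB1 (-0.03) did not differ beyond the spread. HLA genes have near-identical copies, and reads may be split between them.

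**Figure D4:**
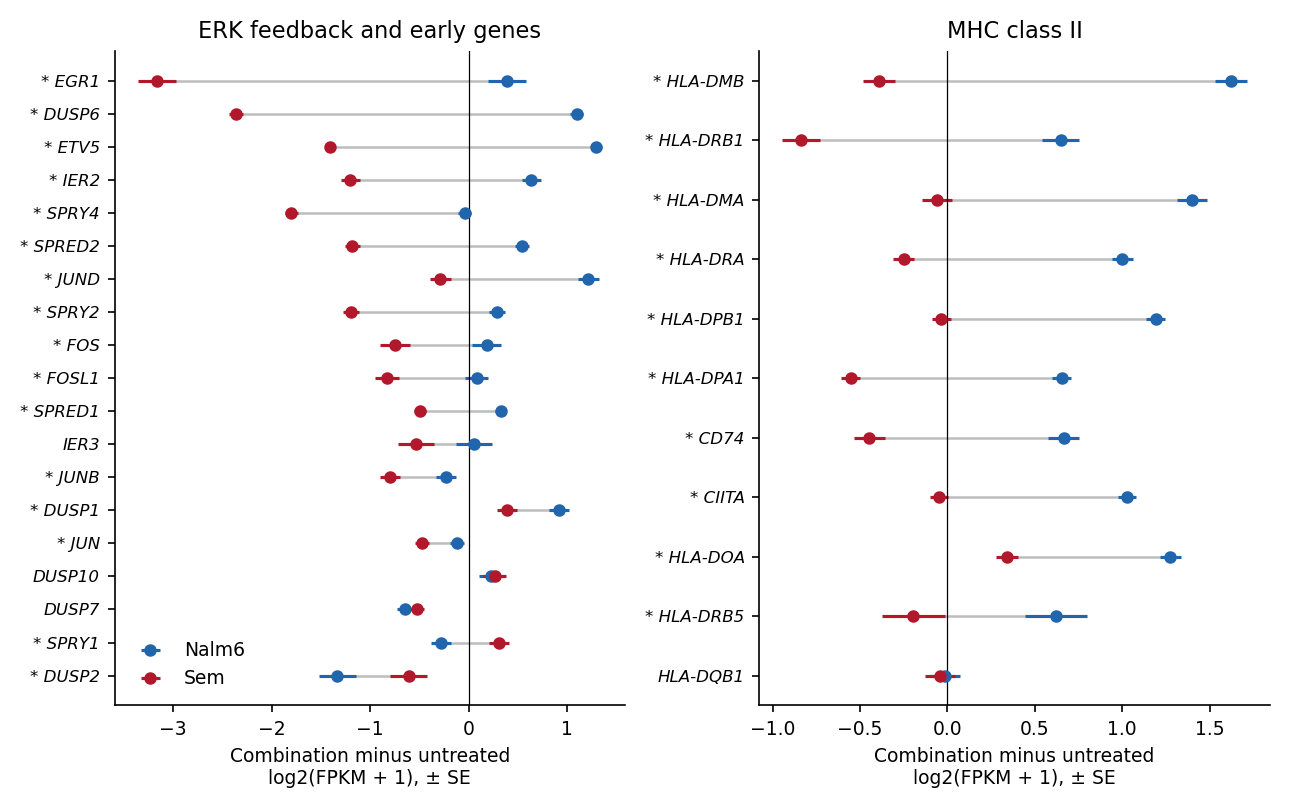
Log2 change with the combination, ± SE, in Nalm6 (blue) and Sem (red) for each tested gene of the ERK feedback list (left, 19 genes) and of MHC class II (right, 11 genes); an asterisk marks a difference between the lines with an adjusted p under 0.05. On the left 16 of 19 red points mark falls in Sem that passed, and the 4 genes at the bottom have the Sem point to the right of the Nalm6 one; on the right 10 of 11 blue points are right of 0 and most red points lie near or left of it.

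The pre-B cell receptor and the kinases behind it did not move as one. Of 28 tested genes, 10 differences were higher in Sem and 11 lower (75% called, median 0.00), and 5 were opposite. CD79A, the signalling chain of the receptor, rose in Nalm6 from 79.4, 61.5 and 82.1 to 259, 330 and 331 FPKM. In Sem CD79A was 105, 95.6 and 111 FPKM untreated and 118, 111 and 114 FPKM treated, overlapping groups (difference -1.89 ± 0.149, limma adjusted p = 7.2e-09). The change of CD79A in Sem (0.14) did not pass, but a rise was called under quantile normalization (0.40). The kinases SYK (0.41) and BLK (0.69), both named after their values were seen, rose slightly in Sem and fell in Nalm6; the fall of SYK in Nalm6 was -0.07 and not called under TPM rescaling and turned to 0.12 under quantile normalization. Of 24 surface antigens, several of them targets of antibodies or engineered T cells, 13 differences were lower in Sem and 5 higher (75% called). CD72, an inhibitory co-receptor, rose in Nalm6 from 5.21, 5.25 and 5.39 to 24.9, 24.9 and 24.1 FPKM, which brought it to the level of Sem (21.4 to 23.2 FPKM over all 6 libraries; difference -2.08).

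Most growth genes fell in both lines and more in Nalm6. DNA replication genes were higher in Sem in the difference for 40 of 41 and lower for 0 (97.6% called). Their median changes were -0.42 in Sem and -1.06 in Nalm6. In Sem 35 fell and 2 rose, in Nalm6 40 fell and 0 rose. The 2 that rose were RFC5, a clamp loader subunit (0.56 in Sem, -0.76 in Nalm6), and CDT1, which licenses origins (0.42 and -0.69). RRM1, of ribonucleotide reductase (1.15), and CDC6, also of origin licensing (0.96), followed in size of difference. MYC and the genes it induces were higher in Sem for 32 of 35 and lower for 1 (94.3% called, median 0.59). Among them were NPM1, a nucleolar chaperone (1.13), HSPD1, a mitochondrial chaperone (1.03), and ODC1, of polyamine synthesis (1.00). MYC itself fell in Nalm6 from 341, 309 and 352 to 121, 164 and 155 FPKM. In Sem MYC was 155, 154 and 155 FPKM untreated and 170, 171 and 168 FPKM treated, a change of 0.14 that did not pass although the groups did not overlap. This rise was called under TPM rescaling (0.23), quantile normalization (0.32) and removal of the GC and length trend (0.16). It was also called without the 3 libraries that stood apart or without treated Nalm6 library 1. The lines started apart in MYC and ended at similar levels (1.33 ± 0.113, limma adjusted p = 2.1e-08). Ribosome biogenesis genes were higher in Sem for 26 of 29 and lower for 0 (89.7% called, median 0.51), with 28 falling in each line.

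Lipid synthesis followed the same order. Cholesterol genes were higher in Sem for 19 of 24 and lower for 3 (91.7% called, median change -0.27 in Sem and -0.95 in Nalm6). Fatty acid genes were higher in Sem for 10 of 13 and lower for 0 (76.9% called, -0.35 and -0.97). HMGCS1, which makes HMG-CoA for the sterol pathway, fell from 76.3, 85.8 and 77.2 to 16.4, 13.5 and 14.4 FPKM in Nalm6 and from 79.4, 75.8 and 79.9 to 57.3, 56.1 and 56.1 FPKM in Sem (1.89 ± 0.076, limma adjusted p = 1.1e-12). HMGCS1 began level in both lines, and the treated libraries of Sem lay far above those of Nalm6. SCD, the fatty acid desaturase (1.71), DHCR7, the last step to cholesterol (1.43), and FASN, fatty acid synthase (1.13), differed likewise. ID3, an inhibitor of E proteins, differed by 2.18 ± 0.092 (limma adjusted p = 1.8e-12). It went from 59.2, 49.7 and 58.9 to 9.50, 9.95 and 10.4 FPKM in Nalm6 and from 180, 161 and 188 to 150, 153 and 158 FPKM in Sem, where its fall lost its call in 6 of 23 alternatives and was 0.01 under quantile normalization. Heat shock genes fell in both lines, 18 of 18 in Sem and 17 of 18 in Nalm6. Of their differences 10 were higher in Sem and 1 lower (61.1% called). HSPA5, a chaperone inside the endoplasmic reticulum, fell by 0.59 in Sem and by 1.35 in Nalm6 (0.76).

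Ribosomal protein genes split by line: of 52, 26 rose and 0 fell in Sem, and 2 rose and 24 fell in Nalm6. The difference was higher in Sem for 32 and lower for 0 (61.5% called, median 0.38), and 13 were opposite, among them RPS2 (1.09), RPL12 (0.99) and RPS9 (0.88). Opposite members numbered 8 without the 3 libraries that stood apart, 8 with no filter, 9 with the 12 libraries alone in the fit and 7 under quantile normalization. Without untreated Sem library 2 alone, the rises in Sem of RPS2 (0.17 to 0.11) and RPS9 (0.19 to 0.11) were not called; they were not called without treated Sem library 3 either (0.14 and 0.17), nor that of RPS9 without treated Sem library 2 (0.18). The Nalm6 direction depended on the scaling, with a median change of -0.16 that became 0.01 under TPM rescaling and 0.18 under quantile normalization. The difference kept its sign (median 0.30 and 0.09), and under quantile normalization 17 were higher in Sem and 1 lower. Ribosomal proteins have many processed copies, among which reads may be split. Amino acid synthesis genes were higher in Sem for 15 of 22 and lower for 4 (86.4% called, median 0.59), and 6 were opposite. PYCR1, of proline synthesis, rose by 0.22 in Sem and fell by 0.99 in Nalm6 (difference 1.2), and MTHFD1L, of mitochondrial folate metabolism, rose by 0.12 and fell by 0.94 (1.06). The small rise of PYCR1 in Sem lost its call in 7 of 23 alternatives, among them those without any 1 Sem library of the contrast other than untreated library 1 (0.19 to 0.23), and that of MTHFD1L without untreated Sem library 2 or treated Sem library 1. GOT1, the cytosolic aspartate aminotransferase, went the other way (-1.09), through a rise in Nalm6. Of 20 tRNA synthetases, 14 differences were higher in Sem and 1 lower (75% called), with QARS (0.73) and EPRS (0.69) opposite. The small rise of EPRS in Sem (0.15) was not called with the 12 libraries alone in the fit or without untreated Sem library 1 (0.09).

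**Figure D5:**
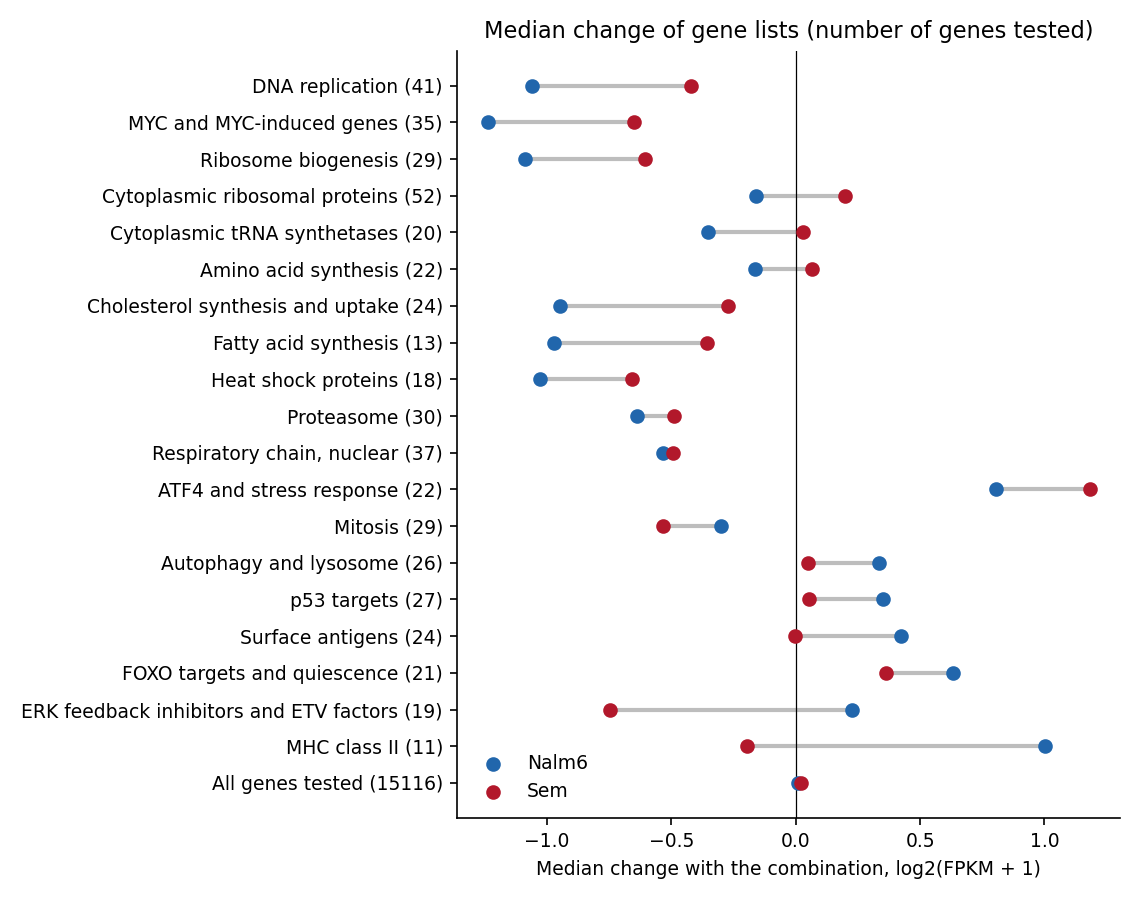
Median log2 change with the combination in Nalm6 (blue) and Sem (red) over the tested genes of each list, with the number of genes in brackets and all 15116 genes at the bottom, where both medians lie near 0. In the growth and lipid lists at the top the Nalm6 median is the lower one (-0.95 against -0.27 for cholesterol), and in MHC class II and ERK feedback the lines lie on either side of 0.

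Most stress genes rose in both lines. Of 22 genes of the ATF4 and stress list, 19 rose and 2 fell in each line. Of their differences 12 were higher in Sem and 8 lower (90.9% called, median 0.18). ATF5, a stress transcription factor, rose from 12.2, 11.1 and 12.6 to 94.2, 90.7 and 88.6 FPKM in Sem and from 151, 134 and 151 to 227, 261 and 260 FPKM in Nalm6 (2.06 ± 0.080, limma adjusted p = 6.4e-13). Treated Sem still had less ATF5 than untreated Nalm6. CHAC1, which degrades glutathione, rose from 1.31, 1.71 and 1.92 to 12, 15.9 and 14.4 FPKM in Sem and from 4.04, 4.98 and 3.70 to 11.7, 14.3 and 15.2 FPKM in Nalm6 (1.02 ± 0.178, limma adjusted p = 0.00014), and the treated libraries of the 2 lines overlapped. PSAT1, of serine synthesis, rose from 84.0, 83.8 and 92.3 to 201, 203 and 205 FPKM in Sem, and the Nalm6 groups overlapped at 128 to 151 FPKM (1.10). A small rise of PSAT1 in Nalm6 (0.11) was called, but lost its call in several alternatives. Among them were the fit with the 12 libraries alone and that without the 3 libraries that stood apart (0.09). GPT2, an alanine aminotransferase, rose in Sem (1.16), with overlapping groups in Nalm6 (difference 1.24). FCRLA, an Fc receptor-like protein (1.2), and RIMS3 (1.31) also rose more in Sem.

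PPP1R15A, which restores protein synthesis after stress, was larger in Nalm6. It rose from 7.02, 6.42 and 7.98 to 52.3, 54.3 and 54.7 FPKM there and from 7.24, 9.03 and 8.82 to 13.6, 14.4 and 14.3 FPKM in Sem (-2.06 ± 0.124, limma adjusted p = 2.5e-10). The lines began level in PPP1R15A and ended without overlap. CEBPB (-1.65), a partner of ATF4, and DDIT3, which drives stress-induced death (-1.01; 1.43 in Sem, 2.44 in Nalm6), followed it. TRIB3 rose in both lines, and its difference of -0.78 shrank to -0.46 on whole reads and no longer passed (limma-voom adjusted p = 0.0726). ATF4 itself rose by 0.30 in Sem and 0.12 in Nalm6, a difference of 0.19 whose call was lost in 10 of 23 alternatives. ASNS, asparagine synthetase, rose in both lines at a low level. It went from 0.434, 0.243 and 0.219 to 1.07, 1.05 and 1.15 FPKM in Sem (0.69, limma adjusted p = 2.7e-07) and from 0.600, 0.506 and 0.520 to 1.04, 0.933 and 1.19 FPKM in Nalm6 (0.41, limma adjusted p = 6.5e-05; 0.16 and not called under quantile normalization). The ASNS difference of 0.28 was lost in 13 of 22 alternatives.

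The BCL2 family did not move as one: of 18 tested genes, 6 differences were higher in Sem and 8 lower (77.8% called, median 0.02). BMF, a death-promoting relative of BCL2, went from 0.425, 0.426 and 0.474 to 6.36, 6.87 and 6.82 FPKM in Nalm6, while Sem already held 25.0, 24.9 and 24.0 FPKM untreated and reached 30.9, 32.4 and 33.0 FPKM (-2.05 ± 0.090, limma adjusted p = 3.2e-12). Treated Nalm6 thus stayed below untreated Sem in BMF. HRK, also of that kind, rose by 1.23 in Nalm6 and was at 0 in treated Sem; its difference did not pass on whole reads (-1.36, limma-voom adjusted p = 0.235). BID went the other way, falling in both lines and more in Nalm6 (1.22), with its fall in Sem not called under quantile normalization (-0.14). Of 21 FOXO targets and quiescence genes, 13 differences were lower in Sem and 4 higher (81.0% called, median -0.53). Among these genes 14 rose in Sem and 19 in Nalm6. TXNIP, which restrains glucose uptake, was opposite (-1.60; -0.25 and 1.35), although its fall in Sem was not called under TPM rescaling (-0.17) or quantile normalization (-0.16), and CCNG2, a cyclin of resting cells (-1.55), rose in both lines. Of 27 p53 targets, 10 differences were lower in Sem and 2 higher, a share of 44.4% that is near the 40.8% of all genes tested. BTG2, an antiproliferative gene, had the most negative value of those (-1.42). CDKN1A, the p21 inhibitor of cell cycle kinases, fell by 0.54 in Sem and rose by 0.45 in Nalm6 (-0.99). TP53INP1, also a p53 target, rose 6.68-fold in Sem and 8.49-fold in Nalm6 in mean FPKM. Its difference of -1.40 on log2(FPKM + 1) shrank to -0.35 on whole reads and no longer passed (limma-voom adjusted p = 0.206).

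Mitosis genes were the main group that fell further in Sem. Of 29, 27 fell and 0 rose in Sem, and 19 fell and 3 rose in Nalm6. Their differences were lower in Sem for 16 and higher for 7 (79.3% called, median -0.26). PLK1, a mitotic kinase, fell from 29.8, 29.9 and 32.1 to 13.8, 13.0 and 12.5 FPKM in Sem, while the Nalm6 groups overlapped at 21.4 to 28.6 FPKM (-0.99 ± 0.092, limma adjusted p = 6.4e-08). CCNB1, the mitotic cyclin (-0.99), and CDC20, an activator of mitotic exit (-0.93), fell in Sem, and CENPA, the centromere histone (-1.06), and CCNB2 (-0.74) were opposite, that of CENPA not without treated Nalm6 library 2 (0.19). Smaller falls of PLK1 (-0.17) and CDC20 (-0.30) were also called in Nalm6. Neither was called under quantile normalization (0.07 and 0.04), nor that of PLK1 under TPM rescaling (-0.0051). The Nalm6 median of the list, -0.30, turned to 0.04 under quantile normalization. Outside the list, ITGB2, the beta 2 integrin of leukocytes (-1.37), HBEGF, an EGF receptor ligand (-1.0), and VASP, an actin regulator (-0.96), fell in both lines and more in Sem, except that the fall of VASP in Nalm6 (-0.25) was -0.09 under TPM rescaling and 0.05 under quantile normalization, neither called. Genes whose change was called in Sem alone included TIMP1, a metalloprotease inhibitor (-1.53), and ATP13A2, a lysosomal pump (-1.39), which fell, and CRACR2B (1.18) and TFDP2, a partner of E2F (0.94), which rose. A rise of TIMP1 in Nalm6 (0.26) was called under TPM rescaling (0.49) and without untreated Nalm6 library 3 (0.46) or treated library 1 (0.41). For CRACR2B the change in Nalm6 (-0.24) was called under quantile normalization (-0.38). With a change called in Nalm6 alone, NEIL1, a DNA repair glycosylase, rose (-2.13), and NRGN (1.80), HMGA1, a chromatin protein (1.63), and PCLAF, which binds PCNA (1.49), fell. A rise of PCLAF in Sem (0.17) was called under TPM rescaling (0.27) and quantile normalization (0.32). The change of HMGA1 in Sem (-0.20) was called with the GC and length trend removed (-0.17), without the 3 libraries that stood apart (-0.17) and without treated Nalm6 library 1. YPEL5 (-1.84) and PHYH, a peroxisomal enzyme (-1.76), rose in both lines and more in Nalm6; the rise of PHYH in Sem (0.21) was not called under quantile normalization (0.11) or without untreated Sem library 1 or treated Sem library 2 (both 0.17).

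Among genes reported whatever their values, ATF3 rose in both lines with no difference that passed (-0.08, limma adjusted p = 0.69). MEIS1, a cofactor of HOX proteins, did not pass in either line (difference -0.07) and was at 0 in Nalm6. HOXA9, also at 0 in Nalm6, fell by 0.14 in Sem, and its difference lost its call in 15 of 23 alternatives. The survival gene MCL1 differed by -0.16, lost in 9 of 23. CCND3, a cyclin of the G1 phase, fell by 0.60 in Sem and by 1.14 in Nalm6 (0.54), and CCND1 and CCND2 were too low to test. BCL6, a transcriptional repressor, fell in Nalm6 from 1.15, 0.803 and 0.902 to 0.364, 0.454 and 0.270 FPKM, and in Sem it was 1.93 to 2.07 FPKM untreated and 2.38 to 2.40 FPKM treated (0.68).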

How the data were processed

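The authors deposited 1 table of FPKM values per gene for 58735 genes in 24 libraries. Per the submitters' processing notes, reads were handled with fastp, STAR and featureCounts on build hg38; versions, strand and the FPKM scaling were not given in the sources used here. Per the labels' protocols, RNA was isolated on RNeasy columns and libraries were made with a NEBNext Ultra kit. In the deposited table every value of 1 or more (299165, 21.2% of values) had lost its decimal point. Values under 1 were intact and were whole numbers of reads to within 9.1e-13, so the power of 10 of each damaged value was restored as the one that gave whole reads, chosen over the 12 libraries of a line with Student t priors. A posterior under 0.99 remained for 399 values in 215 genes; 159 tested genes held one in the 12 libraries compared, and none was among the 34 strong opposite responses. On simulated damage 99.9% of 77774 values came back correct; of 50 genes made to fall 10-fold in the combination of 1 line, 17 came back wrong, all with a posterior under 0.99.

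Genes with at least 1 FPKM in at least 3 of 24 libraries were fitted with limma 3.58.1 (limma-trend) in R 4.3.3 on log2(FPKM + 1), with 8 groups, no covariate and 16 residual degrees of freedom, and Benjamini-Hochberg adjustment over 15116 genes. On simulated data the fit called 96% of 50 genes that differed 2-fold between the lines and 72.3% of 47 at 1.5-fold. It called 10.2% of 49 genes that differed by 0.3 on the log2 scale and 26 of 14630 unchanged genes. The simulated noise was independent between genes, so trends that run across a whole library, such as with GC content, were not part of it. Comparisons within a line and between lines share the untreated libraries. The comparison, the lists and the naming rule were chosen with earlier results of these data known. The named genes are protein-coding genes restored at a posterior of at least 0.99: the leading strong opposite responses by their smaller change, the leading genes of the other kinds by size of difference, up to 5 members a list, and a set reported always. Some genes that the rule names are not reported here. Promoters came from the RefSeq table of GRCh38.p14, and genes were matched to GENCODE 29. Samples were grouped by their titles.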

Additional observations from a re-analysis of the deposited data

Results flagged for a closer look

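The difference between the lines was itself tested and passed for 6160 genes, and each gene below passed that test while moving at least 1.5-fold in both lines in opposite directions. Higher in Sem were IGLL1 (3.07), AC119396.1 (2.06), HDAC9 (1.69), DERL3 (1.68), PELI3 (1.55), QPRT (1.37), PHACTR1 (1.36) and BIK (1.33). Lower in Sem were DUSP6 (-3.46), TNF (-3.38), LGALS1 (-2.91), ETV5 (-2.71), ALOX5AP (-2.57), ITGA6 (-2.44), DMPK (-2.31), TMC8 (-2.16), LYL1 (-2.12), MYO7B (-2.05), RGS16 (-1.93), IER2 (-1.84), CD52 (-1.56), HLA-DRB1 (-1.49) and ICAM1 (-1.48). HLA-DRB1 was not among the strong opposite responses without the 3 libraries that stood apart. All values are log2(FPKM + 1) differences of the combination effect, Sem minus Nalm6.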

How the results depend on the processing

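The 6160 calls ranged from 5689 to 6343 when 1 of the 12 libraries was left out, the 477 opposite responses from 409 to 529, the 34 strong ones from 31 to 39, the 1313 called genes expressed in 1 line or neither from 1190 to 1275, the 2130 same-direction genes from 1849 to 2214 and the 2177 one-line responses from 2046 to 2245. Strong opposite responses numbered 52 with a pseudocount of 0.1, 57 after TPM rescaling, 58 by limma-voom on whole reads and 16 where expression meant 5 FPKM. Called genes expressed in 1 line or neither numbered 2078 with no filter, 381 with a filter at 5 FPKM, 607 by limma-voom and 2697 where expression meant 5 FPKM, and one-line responses then numbered 1398. TPM rescaling moved the median of all genes by 0.09 in Sem, 0.15 in Nalm6 and -0.07 in the difference; it took the share of same-direction genes higher in Sem from 62.0% to 45.3%, and limma-voom took that of genes expressed in 1 line from 45.5% to 34.4%. Of opposite responses, 420 of 477 were in the same class by limma-voom, 297 under quantile normalization and 287 under TPM rescaling.

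Reversed values under quantile normalization were BTK in Sem (0.0368), ID3 in Sem (0.0052), HOXA9 in Sem and in the difference (0.0195 both), CDKN1B in Sem (0.213), the ATF4 difference (-0.0169) and, in Nalm6, PLK1 (0.0724), VASP (0.0524), EMP1 (-0.0027), MCL1 (0.211), SYK (0.117), CCNB1 (0.168) and CDC20 (0.0432). TPM rescaling reversed MCL1 in Nalm6 (0.0334), and limma-voom reversed the differences of FLT3 (-1.12) and HOXA9 (0.0314), neither of them called there. The cause was not tested. In Nalm6 replicate numbers did not pair the samples: same-numbered untreated and treated libraries correlated at -0.47, -0.42 and 0.26. Untreated library 2 and treated library 1 correlated at 0.60. Both had a negative GC trend (-0.059 and -0.111 per 10 points), and the other untreated and treated Nalm6 libraries a positive one. In Sem same-numbered libraries correlated at 0.11, 0.09 and 0.05 and the others at -0.08 to -0.0046, too small to tell whether numbers pair them. With the replicate block 6181 genes were called. The planned edgeR and DESeq2 fits on recovered reads were not run, and limma-voom and median-ratio scaling were added after seeing the data. Whole reads limit low values: 1 read in a 1 kb gene is worth at least 0.0534 FPKM, so changes of genes near that level were not measurable.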

Other observations

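Further gene groups are read beside the 40.8% of all genes tested whose difference passed. Clustered histone genes, whose RNA is made in S phase, had 7 of 12 differences lower in Sem and 0 higher (58.3% called; median -0.61), with HIST1H1C at -1.60 and HIST1H2BK at -1.51 through rises of 1.26 and 1.19 in Nalm6. Histone genes have near-identical copies, and the median ranged from -1.53 to -0.16 over the alternatives. In glycolysis 12 of 24 differences were higher in Sem and 4 lower (66.7%; median 0.31), with 18 genes falling in Sem and 19 in Nalm6; LDHB, a lactate dehydrogenase chain, differed by 1.25. The glucose transporter SLC2A3 went the other way, falling by 0.53 in Sem and rising by 1.26 in Nalm6 (-1.79).

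Within the NF-kB and inflammatory list, 3 of 16 differences were higher in Sem and 5 lower (50%), and 4 genes were opposite, a pair in each direction: TNF and ICAM1 fell in Sem, whereas TNFAIP3, an inhibitor of the pathway, and CD83, an activation marker, rose there (differences 1.29 and 1.32). The opposite call ended for TNFAIP3 under TPM rescaling and quantile normalization (Nalm6 -0.16 and -0.05) and for CD83 under quantile normalization (Sem 0.25). Among G1 cyclins, kinases and inhibitors, 8 of 17 differences were higher in Sem and 6 lower (82.4%). E2F2, an S phase activator, fell by 1.61 in Nalm6 (1.47), and CDKN1B, the p27 inhibitor, rose by 1.07 there (-1.11). In autophagy and lysosome genes 14 of 26 differences were lower in Sem and 2 higher (61.5%), with MAP1LC3B at -1.63. Nuclear-encoded respiratory chain genes fell in both lines, 31 of 37 in Sem and 32 in Nalm6, with 7 differences higher in Sem and 1 lower (21.6%; median 0.05, -0.02 under TPM rescaling).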
